A study of Mus musculus with 2 samples.

Results

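The Hedgehog ligands and response genes examined here were Shh, Ihh, Ptch1, Boc, Hhip, Smo, Gli1, Gli2 and Gli3, 9 of the 32285 genes counted, together with the 176 of 229480 accessibility peaks that lay within 50 kb of their starts. They were picked by symbol. Nuclei of mouse embryos at embryonic day 7.0 (E7.0), when mesoderm and endoderm form from the epiblast, had been profiled for nuclear RNA and for accessible chromatin in the same droplets. There were 2 samples, 1 RNA library and 1 chromatin accessibility library of E7.0 nuclei, from 1 pool of embryos dissociated with TrypLE. The labels name no mutation, treatment or control group. They also conflict, since the tissue, cell type and strain entries name a section of small intestine, Distal colon, Goblet cells and RedMUC298trTg, while the title, age and protocol name E7.0 embryos.

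The RNA was read against markers of both labels. Goblet and intestinal epithelial markers summed to 30.1 UMIs per 1000000 UMIs (CPM, the level used throughout for RNA) over the 12796 nuclei kept, and to 100.3 CPM in the visceral endoderm class, where they were highest. Visceral endoderm markers summed to 3461 CPM over all kept nuclei, epiblast markers to 1577 CPM and primitive streak markers to 390 CPM. Decidua markers were at 12.9 CPM and immune markers at 5.84 CPM over all kept nuclei. Their highest levels were 24.2 CPM in the epiblast class and 8.87 CPM in the parietal endoderm class, respectively. With 1 library per assay nothing below has a replicate check, no test was possible, and every interval is at 95% and covers counting error only. Kept nuclei had a median of 10471 UMIs and 17350 peak counts.

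Hedgehog ligands are secreted, lipid-modified proteins. In their absence the receptor Ptch1 holds the membrane protein Smo inactive at the primary cilium, and Gli2 and Gli3 are processed towards repressors. Ligand binding releases Smo, Gli proteins become activators, and Ptch1, Gli1 and Hhip are transcribed, so that their RNA is widely used as a readout of the response. Ihh is known from the visceral endoderm of the gastrulating mouse and Shh from the node and the axial mesendoderm that leaves it, and Hedgehog signalling from endoderm to yolk sac mesoderm is known to bear on blood and vessel formation.

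RefSeq promoters (250 bases before to 50 after a start, build GRCm38.p6) were at hand for 6 of the 9 genes. Those of Ihh, the one of the 2 ligands here with more RNA, and of Ptch1 and Hhip, a pair of response genes, are shown. All 6 overlapped an accessibility peak. CpG dinucleotides are in capitals and sequences run 5′ to 3′ on the minus strand, at chr1:74951623-74951922 for Ihh, chr13:63565686-63565985 for Ptch1 and chr8:80057959-80058258 for Hhip.
Ihh: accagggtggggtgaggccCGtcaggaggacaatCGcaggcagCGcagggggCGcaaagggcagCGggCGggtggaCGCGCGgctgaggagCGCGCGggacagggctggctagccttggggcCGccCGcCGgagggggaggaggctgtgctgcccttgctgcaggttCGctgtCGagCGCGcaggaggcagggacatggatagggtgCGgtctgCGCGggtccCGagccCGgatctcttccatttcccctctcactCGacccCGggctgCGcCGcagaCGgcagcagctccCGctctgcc
Ptch1: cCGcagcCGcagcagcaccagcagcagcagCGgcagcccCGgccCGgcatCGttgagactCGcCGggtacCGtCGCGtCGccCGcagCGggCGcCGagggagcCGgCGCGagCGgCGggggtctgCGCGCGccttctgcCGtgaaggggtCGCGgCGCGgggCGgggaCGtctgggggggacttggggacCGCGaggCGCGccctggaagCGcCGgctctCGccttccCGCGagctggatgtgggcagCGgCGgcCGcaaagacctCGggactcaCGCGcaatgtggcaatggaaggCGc
Hhip: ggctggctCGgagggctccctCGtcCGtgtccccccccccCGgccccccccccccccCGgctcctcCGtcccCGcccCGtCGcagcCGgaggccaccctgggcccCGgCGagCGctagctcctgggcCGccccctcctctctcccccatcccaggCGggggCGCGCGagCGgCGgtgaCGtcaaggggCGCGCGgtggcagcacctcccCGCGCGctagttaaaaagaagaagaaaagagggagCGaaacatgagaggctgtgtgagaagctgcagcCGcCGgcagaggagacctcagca
The Ptch1 promoter held 47 CpGs in its 300 bases, a number reached by 1.44% of 32851 mouse promoters of that length. Ihh and Hhip held 30 each, reached by 11.7%, against a median of 7. The GLI binding motif GACCACCCA was searched on both strands and was in none of the 6 promoters, while 0.253% of all promoters held it. The looser GACCNCCCA, which includes the first motif, was also in none of the 6 and in 0.977% of all. A missing match says only that those letters are not in the window.

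RNA was read in classes of nuclei built from accessibility alone, without the 176 peaks, so that no value of these genes shaped the classes. Of 18 clusters, 13 were given one of 8 class names by marker RNA, and each name carries "-like" for that reason. The classes were epiblast-like (3760 nuclei), visceral endoderm-like (1961), embryonic mesoderm-like (1148), primitive streak-like (952), extraembryonic ectoderm-like (877), ectoplacental cone and giant cell-like (710), haemato-endothelial progenitor-like (591) and parietal endoderm-like (26). The other 5 stayed unnamed. In cluster 6 (933 nuclei), markers of the node and of anterior streak and definitive endoderm were both raised. Cluster 12 (552 nuclei) had all 11 visceral endoderm markers raised, with a score of 1.48, but a goblet and intestinal score of 1.28 stood too close for a name. Cluster 14 (490 nuclei) had raised germ cell and embryonic mesoderm markers, cluster 10 (631 nuclei) a median of only 1778 UMIs, and cluster 16 (165 nuclei) mitochondrial leading genes.

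**Figure D1:**
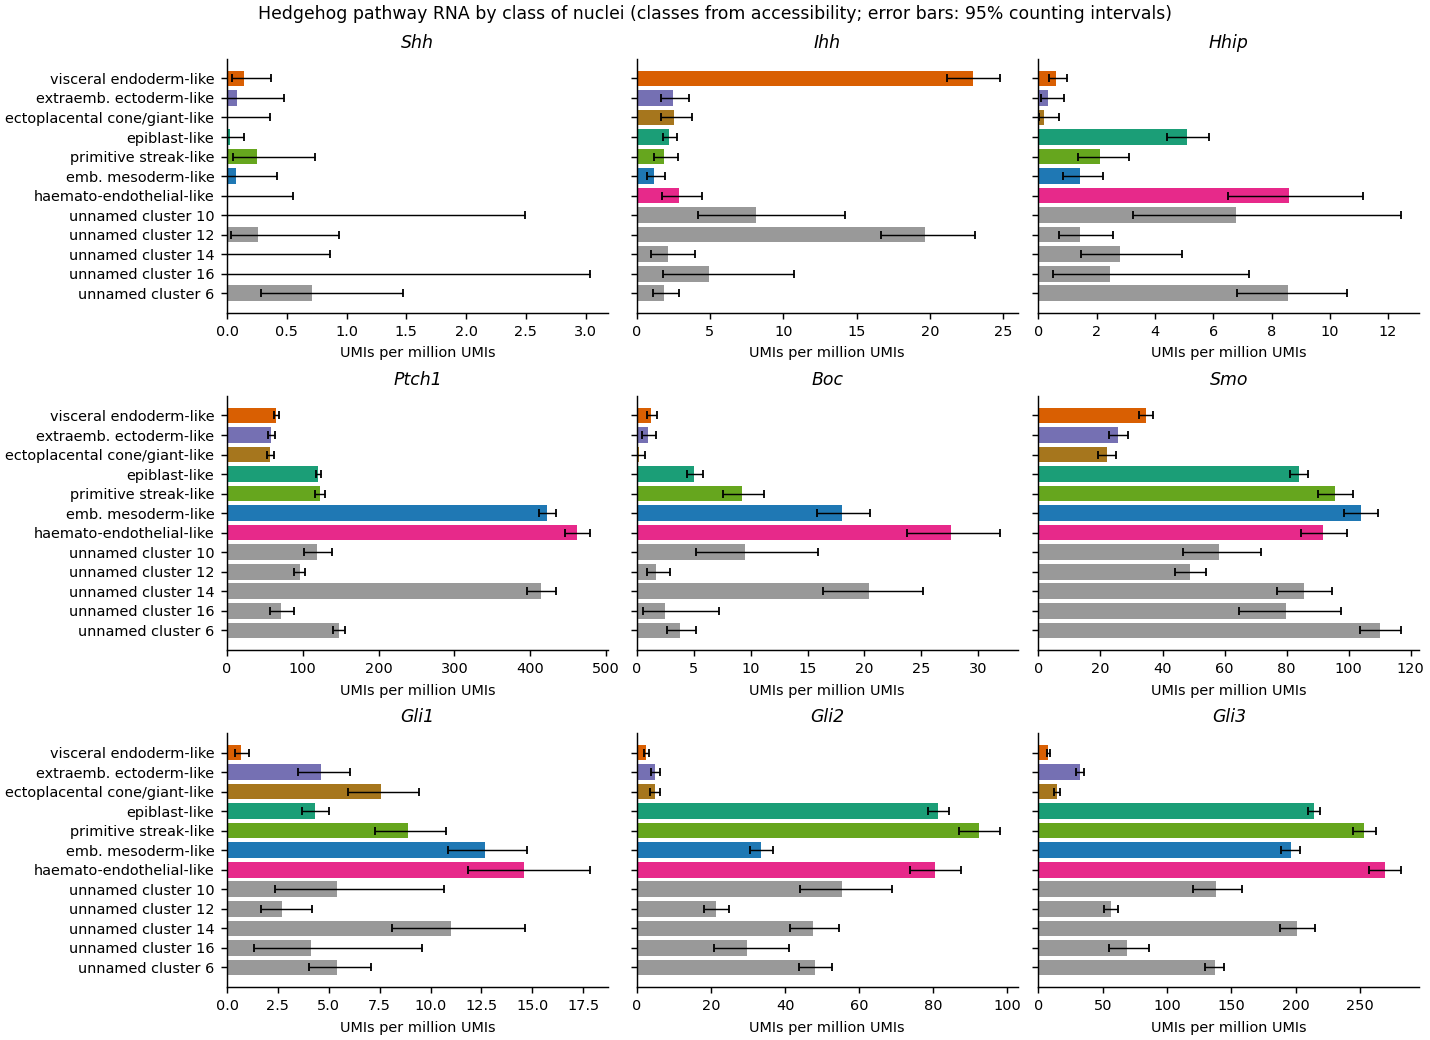
RNA level of each of the 9 genes (horizontal axis in CPM, starting at 0 with its own range in each panel) in the 12 accessibility classes and unnamed clusters of at least 50 nuclei. Bars are the summed level and error bars 95% counting intervals. Ihh peaks in the visceral endoderm-like class (22.9) and cluster 12 (19.7), and Ptch1 in the haemato-endothelial progenitor-like and embryonic mesoderm-like classes and cluster 14 (415 to 462).

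Ihh, the gut and bone Hedgehog ligand (ENSMUSG00000006538, start at position 74951672 of chromosome 1, build mm10), had 1044 UMIs in 805 nuclei, against 19 UMIs of Shh. The remaining Hedgehog ligand, Dhh, was 0.31 CPM in epiblast-like nuclei on 12 UMIs and 0.21 in visceral endoderm-like nuclei on 6. Of the Ihh UMIs, 643 lay in the visceral endoderm-like class, at 22.9 CPM (21.2–24.8), and 152 in cluster 12, at 19.7 CPM (16.7–23.1). Embryonic mesoderm-like nuclei gave 1.19 CPM (0.68–1.94), primitive streak-like 1.85, epiblast-like 2.21 (1.76–2.72), extraembryonic ectoderm-like 2.49, ectoplacental cone-like 2.55 and haemato-endothelial progenitor-like 2.86 CPM. Clusters 6, 14, 16 and 10 gave 1.83, 2.11, 4.94 and 8.12 CPM. The interval of the visceral endoderm-like class lay above all of these and overlapped those of cluster 12 and of the parietal endoderm-like class, whose 6 UMIs in 26 nuclei gave 17.7 CPM (6.51–38.6). The level was 10.4-fold (8.29–13.2) that of the epiblast-like class and 6.72-fold (5.92–7.63) that of all other nuclei, among which cluster 12 counted. With doublet calls kept the latter was 3.49, where a cluster of 1101 nuclei with all 11 visceral endoderm markers raised also stayed unnamed. The cause was not tested.

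Per nucleus, Ihh was seen in 9.63% of visceral endoderm-like nuclei thinned to 5000 UMIs (23.4% unthinned) and in 11.1% of those of cluster 12. The same share was 0.54% (1.22% unthinned) in embryonic mesoderm-like nuclei, the class with the lowest level. Median depths were 13149, 10951.5 and 10854.5 UMIs in that order. Epiblast-like nuclei held 9.62% of the visceral endoderm-like level of Ihh, while visceral endoderm markers had a median of 5.85% (1.76–13.7 across markers) there. In haemato-endothelial progenitor-like nuclei the values were 12.5% for Ihh and 7.37% (1.57–12.9) for the markers. In every group but cluster 12 and the parietal endoderm-like class, the Ihh percentage lay within the range of those markers, and did not exceed the highest of them. In cluster 12 it was 85.9% against 74.0% (65.6–84.8), and in parietal endoderm-like nuclei 77.4%, above the highest marker (34.5%), on the 6 UMIs given. Of those 6 UMIs, seen in 3 nuclei, 4 came from 1 nucleus.

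Ihh was not even within the visceral endoderm-like class. Of the 2 accessibility clusters of the class, cluster 0 (1169 nuclei) had 30.02 CPM (27.4–32.8), and cluster 7 (792 nuclei), with Sfrp5 and Gckr among its leading genes, had 13.3 (11.3–15.5). At the finer clustering (resolution 2) an unnamed cluster of 421 nuclei led by Igfbp1, Slc9a3 and Pitx1 reached 40.6 CPM (35.2–46.5). Clusters built from RNA without the 9 genes gave a wider range. A group of 146 nuclei with the same 3 leading genes, RNA cluster 15, had 65.7 CPM (55.2–77.5) on 140 UMIs. Its parietal endoderm score was 2.28 (7 of 8 markers raised) and its visceral endoderm score 0.95, so its RNA markers do not place it in visceral endoderm alone. It stayed unnamed because Pitx1, a marker of the extraembryonic mesoderm list, was among its 10 leading genes and no parietal endoderm marker was. In accessibility, 82.2% of it lay in the visceral endoderm-like class and 17.1% in cluster 12. A visceral endoderm-like RNA cluster of 213 nuclei had 46.4 CPM (37.6–56.8), and the remaining large ones 24.3 (21.9–26.9) and 12.8 (10.98–14.9).

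Shh (ENSMUSG00000002633, start at position 28467256 of chromosome 5), the ligand of notochord and floor plate, was close to the limit of detection, with 19 UMIs in 17 of 12796 nuclei. Unnamed cluster 6 held 7 of them, at 0.71 CPM (0.29–1.47), of which 3 came from 1 nucleus. The visceral endoderm-like class held 4 UMIs (0.14 CPM), the primitive streak-like class 3 (0.25 CPM), cluster 12 held 2, and the embryonic mesoderm-like, extraembryonic ectoderm-like and epiblast-like classes 1 each. The ratio of cluster 6 to all other nuclei was 8.08 (2.69–22.2). Among RNA clusters, the node-like one (229 nuclei) had 2.12 CPM (0.69–4.95) on 5 UMIs from 3 nuclei. A source cell type for Shh cannot be read with more precision at this depth.

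Ptch1 (ENSMUSG00000021466, starts at positions 63564535 to 63565735 of chromosome 13), the receptor and a response gene, had 22234 UMIs in 58.4% of nuclei. It was highest in 3 mesodermal groups. The haemato-endothelial progenitor-like class led with 462 CPM (446–479), followed by embryonic mesoderm-like nuclei with 423 (412–434) and cluster 14 with 415 (396–435). The last pair of intervals overlapped, and the first lay above both. All other classes lay far below, led by cluster 6 at 148 (140–155), the primitive streak-like class at 122 (116–129) and the epiblast-like class at 121 (117–124). Clusters 10, 12 and 16 had 119, 95.8 and 71.6, the parietal endoderm-like class 104, the visceral endoderm-like class 65.0 (62.0–68.0), the extraembryonic ectoderm-like class 58.2 and the ectoplacental cone-like class 57.0. Over epiblast-like nuclei the fold was 3.83 (3.66–4.01) in haemato-endothelial progenitor-like, 3.51 (3.37–3.64) in embryonic mesoderm-like and 0.54 (0.51–0.57) in visceral endoderm-like nuclei.

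Thinned to 5000 UMIs, 75.5% of haemato-endothelial progenitor-like and 73.5% of embryonic mesoderm-like nuclei had a Ptch1 UMI (87.3% and 87.0% unthinned). The shares were 40.4% in epiblast-like, 25.7% in visceral endoderm-like, 22.9% in extraembryonic ectoderm-like and 21.6% in ectoplacental cone-like nuclei, the class with the lowest level. Median depths were 10564, 10854.5, 9808.5, 13149, 12054 and 12749.5 UMIs in that order. The Ptch1 level in visceral endoderm-like nuclei was 15.4% of the embryonic mesoderm-like level, where mesoderm markers had a median of 5.64% (0.96–39.9). In the epiblast-like class it was 28.5% against 6.10% (2.42–11.05), above every marker.

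**Figure D2:**
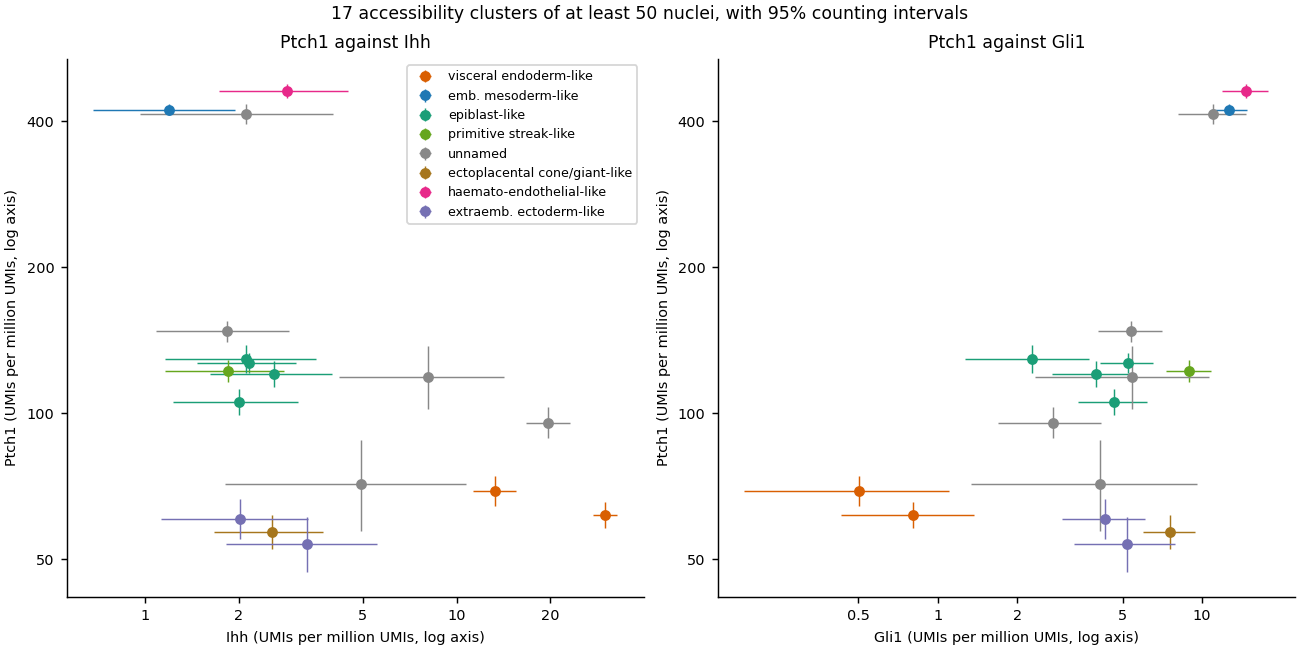
Ptch1 against Ihh (left) and against Gli1 (right) in the 17 accessibility clusters of at least 50 nuclei, in CPM on log axes; points are clusters coloured by class and lines 95% counting intervals. The 3 clusters with Ptch1 at 415 or more have Ihh at 2.86 or less and the 3 highest Gli1 levels, and the visceral endoderm-like clusters hold Ihh at 13.3 and 30.02 with Ptch1 below the epiblast-like level.

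Gli1 (ENSMUSG00000025407, start at position 127341974 of chromosome 10), the transcription factor that amplifies the response, was sparse, with 825 UMIs, but was ordered like Ptch1 at the top. Its level was 14.6 CPM (11.8–17.8) in the haemato-endothelial progenitor-like class, 12.7 (10.9–14.7) in embryonic mesoderm-like nuclei and 11.01 (8.09–14.6) in cluster 14, and these 3 intervals overlapped. The primitive streak-like class followed at 8.91 (7.29–10.8), then ectoplacental cone-like nuclei at 7.55 (5.96–9.44), cluster 6 at 5.40, extraembryonic ectoderm-like nuclei at 4.63 and epiblast-like nuclei at 4.31 (3.68–5.01). Visceral endoderm-like nuclei were lowest among the large classes at 0.68 (0.41–1.06), with cluster 12 at 2.72 (1.68–4.16). Over epiblast-like nuclei the fold was 3.39 (2.61–4.38) in haemato-endothelial progenitor-like, 2.94 (2.36–3.67) in embryonic mesoderm-like and 2.07 (1.61–2.65) in primitive streak-like nuclei, and 0.16 in visceral endoderm-like nuclei. Primitive streak-like nuclei thus had more Gli1 than epiblast-like nuclei at a like Ptch1 level (1.01-fold, 0.96–1.08). The primitive streak-like class was mixed, since RNA clusters placed 59.2% of it in the epiblast-like class and 32.8% in the primitive streak-like class. The ectoplacental cone-like class stood 1.75-fold (1.32–2.31) above the epiblast-like class in Gli1 and at 0.47-fold of it in Ptch1. That class was mixed too, since 75.9% of it fell into the extraembryonic ectoderm-like class at resolution 2. The 171 nuclei that kept the name there had Gli1 at 1.36-fold (0.76–2.28) and Ptch1 at 0.46-fold of the epiblast-like level.

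Hhip (ENSMUSG00000064325, start at position 80058006 of chromosome 8), a membrane protein that binds and sequesters ligand, took another pattern. With 453 UMIs in all, its level was 8.59 CPM (6.50–11.1) in the haemato-endothelial progenitor-like class and 8.56 (6.83–10.6) in cluster 6, which could not be told apart. Epiblast-like nuclei had 5.10 (4.42–5.86) and cluster 10 6.77. Embryonic mesoderm-like nuclei, among the highest in Ptch1, had only 1.42 (0.85–2.21), which was 0.28-fold (0.16–0.45) the epiblast-like level. Primitive streak-like nuclei had 2.10, visceral endoderm-like 0.61 and extraembryonic ectoderm-like 0.34. The 26 parietal endoderm-like nuclei gave 29.6 (14.2–54.4) on 10 UMIs. Where RNA clusters defined the classes, Hhip was highest, among classes of at least 50 nuclei, in anterior streak and definitive endoderm-like nuclei. Of that RNA class, 97.8% lay in cluster 6.

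Boc (ENSMUSG00000022687, start at position 44558897 of chromosome 16), a co-receptor that presents ligand to Ptch1, was highest in the same 3 groups as Ptch1. The haemato-endothelial progenitor-like class reached 27.6 CPM (23.7–31.9), cluster 14 20.4 (16.3–25.1) and embryonic mesoderm-like nuclei 18.1 (15.9–20.5). Primitive streak-like nuclei had 9.24, epiblast-like 5.05 (4.37–5.81), cluster 6 3.77, cluster 12 1.68, visceral endoderm-like 1.25, extraembryonic ectoderm-like 0.94 and ectoplacental cone-like 0.20, the last on 2 UMIs.

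The haemato-endothelial progenitor-like class was a mixture for these genes. At resolution 2, an extraembryonic mesoderm-like cluster of 275 nuclei took 45.5% of the class, and a haemato-endothelial progenitor-like cluster of 302 took 50.6%. Ptch1 was 670 CPM (640–700) in the extraembryonic mesoderm-like cluster, the highest level of any class, against 276 (259–294) in the finer haemato-endothelial progenitor-like cluster and 421 (412–431) in embryonic mesoderm-like nuclei. Gli1 was 21.9 (16.9–28.0) against 8.99 (6.11–12.8) and 12.7 (11.1–14.4). Boc was 48.3 (40.7–56.9) against 6.96 (4.46–10.4) and 19.2. Gli2 was 117 (105–130) against 47.8 and 37.5, and Gli3 350 (329–372) against 199 and 196. For Gli3, 139 primordial germ cell-like nuclei had a like level, 364 (336–393), with Ptch1 at 174.

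The high Ptch1, Gli1 and Boc of the coarser class therefore lay mostly in its extraembryonic mesoderm-like part, where Ptch1 was 4.72-fold (4.50–4.94), Gli1 4.12-fold (3.15–5.31) and Boc 8.69-fold (7.22–10.4) the level of all other nuclei. In the finer haemato-endothelial progenitor-like cluster the folds were 1.85 for Ptch1, 1.61 (1.09–2.30) for Gli1 and 1.09 (0.69–1.62) for Boc. Hhip did not divide in this way, with 7.76 CPM (4.92–11.6) and 9.57 (6.59–13.4), while Smo was 80.3 and 100.3. RNA clusters at the same resolution gave the same division, with Ptch1 at 681 (651–711) in 279 extraembryonic mesoderm-like nuclei and 239 (223–256) in 314 haemato-endothelial progenitor-like nuclei. There Boc was 44.8 (37.4–53.2) and 4.36, and Gli1 23.1 (17.9–29.3) and 6.97 (4.47–10.4).

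**Figure D3:**
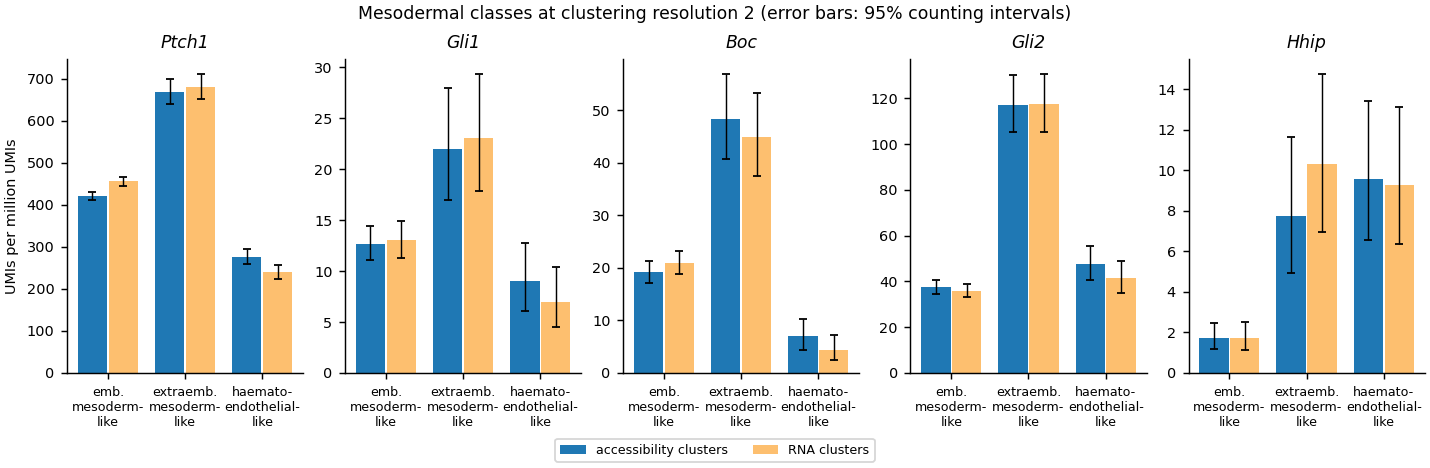
RNA levels of Ptch1, Gli1, Boc, Gli2 and Hhip (vertical axes from 0, CPM) in the 3 mesodermal classes at resolution 2, from accessibility clusters (blue) and from RNA clusters (orange), with 95% counting intervals. Extraembryonic mesoderm-like nuclei are highest in Ptch1 (670 and 681), Gli1, Boc and Gli2, and for Hhip they overlap with the haemato-endothelial progenitor-like nuclei.

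Smo (ENSMUSG00000001761, start at position 29735694 of chromosome 6), the signal transducer that Ptch1 restrains, was broad. Cluster 6 had 110.2 CPM (104–117), embryonic mesoderm-like nuclei 104 (98.5–109), primitive streak-like 95.7, haemato-endothelial progenitor-like 91.7 (84.6–99.3), cluster 14 85.5 and epiblast-like 83.9 (81.1–86.8). Each overlapped its neighbours in this order. Visceral endoderm and trophoblast classes were lower, at 34.6 (32.5–36.9) in visceral endoderm-like, 25.7 (22.8–28.7) in extraembryonic ectoderm-like and 22.0 in ectoplacental cone-like nuclei, with cluster 12 at 48.8.

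Gli2 (ENSMUSG00000048402, start at position 119053619 of chromosome 1), the main activator at the onset of a response, was highest, among these classes at resolution 1, in primitive streak-like nuclei at 92.3 CPM (86.9–97.9), below the 117 of the extraembryonic mesoderm-like nuclei at resolution 2. It was followed by epiblast-like nuclei at 81.4 (78.5–84.2) and haemato-endothelial progenitor-like nuclei at 80.4 (73.8–87.6). Where RNA clusters defined the classes at resolution 1, Gli2 was highest, among classes of at least 50 nuclei, in epiblast-like nuclei. In the accessibility classes, embryonic mesoderm-like nuclei had 33.6 (30.6–36.8), 0.41-fold the epiblast-like level. Gli3 (ENSMUSG00000021318, starts at positions 15463251 to 15463980 of chromosome 13), the main repressor, kept more of its level there. Its levels were 269 CPM (257–282) in haemato-endothelial progenitor-like, 253 (244–262) in primitive streak-like, 214 (210–219) in epiblast-like, 201 in cluster 14 and 196 (188–204) in embryonic mesoderm-like nuclei. Both were low in visceral endoderm-like nuclei, Gli2 at 2.53 and Gli3 at 7.81. These were 3.11% and 3.64% of the epiblast-like level, below every epiblast marker there (median 27.6%, 6.84–50.3).

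The groups therefore combined these genes differently. Set against epiblast-like nuclei, 3 of the 8 genes with at least 50 UMIs over both sides were at least 2-fold higher in embryonic mesoderm-like nuclei (Ptch1, Gli1 and Boc), where 6.61% of all genes were, and 2 were at least 2-fold lower (Gli2 and Hhip), where 11.1% of all genes were. In haemato-endothelial progenitor-like nuclei the same 3 were higher (8.5% of all genes) and 0 lower (11.7% of all genes). In visceral endoderm-like nuclei only Ihh was higher (15.7% of all genes) and 6 were lower (21% of all genes), Ptch1 being the other one measured. In extraembryonic ectoderm-like nuclei 0 were higher (9.9% of all genes) and 6 lower (20.4% of all genes), all but Ihh and Gli1. Over genes with at least 100 UMIs on each side, the median of all genes was 0.11 log2 in extraembryonic ectoderm-like and 0.15 in ectoplacental cone-like nuclei relative to epiblast-like nuclei, and within 0.06 of 0 in the 3 other classes named here.

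Gli1 and Ptch1 were also read nucleus by nucleus. In embryonic mesoderm-like nuclei thinned to 5000 UMIs, Gli1 was seen in 52 of 822 nuclei with a Ptch1 UMI (6.33%, 4.76–8.21) and in 7 of 296 without (2.36%, 0.96–4.81). In haemato-endothelial progenitor-like nuclei it was 35 of 431 (8.12%, 5.72–11.1) and 2 of 140 (1.43%, 0.17–5.07), while in epiblast-like nuclei it was 2.41% and 1.74%. Thinned to 3000 UMIs, a setting chosen after seeing the data, the order turned in embryonic mesoderm-like nuclei, with 20 of 683 (2.93%, 1.80–4.49) against 15 of 452 (3.32%, 1.87–5.41). At that depth it was 28 of 342 (8.19%, 5.51–11.6) and 7 of 242 (2.89%, 1.17–5.87) in haemato-endothelial progenitor-like nuclei. For Hhip in haemato-endothelial progenitor-like nuclei the intervals overlapped, with 2.78% (1.45–4.81) among nuclei with a Ptch1 UMI and 4.29% (1.59–9.09) among those without. Among visceral endoderm-like nuclei, Ptch1 was seen in 26.6% (20.4–33.6) of those with an Ihh UMI and 25.6% (23.6–27.7) of those without. Nuclei of a class differ in state and come from 1 library, so these shares describe it only.

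Across the 17 accessibility clusters of at least 50 nuclei, which share 1 library, Gli2 and Gli3 were most alike (Pearson r 0.96 of log2 levels). Ptch1 had r of 0.92 with Boc, 0.72 with Smo, 0.70 with Gli3, 0.67 with Gli1, 0.62 with Gli2 and 0.54 with Hhip. Hhip was closer to Gli2 (0.85) and Smo (0.80). Ihh had a negative r with all the others except Shh (0.08). The values were -0.71 with Gli1, -0.65 with Gli3, -0.52 with Gli2, -0.44 with Smo, -0.43 with Boc, -0.42 with Ptch1 and -0.31 with Hhip. Among 11420 other genes, those most like Ihh were Gipc2 (0.989), Slc39a5 (0.985) and Slc13a4 (0.980). Those most like Ptch1 were Rbm24 (0.967), Slc2a13 (0.960) and Tcim (0.951), those most like Gli1 included Simc1 (0.893) and Itpr1 (0.887), and those most like Hhip were Frem1 (0.914), Hmgcll1 (0.911) and Pdgfc (0.898). For Shh they were Samd3 (0.860), Scel (0.847) and Chrd (0.830), a secreted BMP antagonist of the node, all highest in cluster 6, though on 19 Shh UMIs.

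Other genes of the pathway were read in 5 lists of 44 genes. Of the ligand processing and release genes, 5 of 6 had enough UMIs. In visceral endoderm-like nuclei, Scube2, a secreted protein that helps release ligand, was 21.5 CPM against 1.18 in epiblast-like nuclei, 18.2-fold (13.5–25.2), and 2 of 5 genes were at least 2-fold higher and 1 lower (15.7% and 21% of all genes, list median 0.25 log2, median of all genes tested -0.10). Scube2 was also raised in haemato-endothelial progenitor-like nuclei, 7.28-fold (4.85–10.98), where 3 of 5 were higher and 0 lower (8.5% and 11.7% of all genes, median 1.42 log2 against 0.00 over all genes). Its relative Scube1 was 22.5 CPM in embryonic mesoderm-like nuclei against 2.85, 7.89-fold (6.33–9.90). Disp1, which exports ligand from producing cells, was 1.59-fold (1.45–1.76) there.

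The co-receptors were led by Lrp2 in endoderm and Gas1 in mesoderm. Lrp2, a large endocytic receptor that is also part of the absorptive apparatus of visceral endoderm, had 763 CPM in visceral endoderm-like nuclei, 165 in epiblast-like and 23.5 in embryonic mesoderm-like nuclei. Gas1, a membrane co-receptor that works beside Boc and Cdon, had 149.7 CPM in embryonic mesoderm-like and 58.8 in haemato-endothelial progenitor-like nuclei against 22.4 in epiblast-like nuclei, folds of 6.69 (6.18–7.26) and 2.63 (2.33–2.96). Gas1 in visceral endoderm-like nuclei was 5.35 CPM. Of the 4 co-receptors, 1 was at least 2-fold higher and 2 lower in visceral endoderm-like nuclei, where 15.7% and 21% of all genes were. In embryonic mesoderm-like nuclei 1 was higher and 1 lower (6.61% and 11.1% of all genes), and in extraembryonic ectoderm-like nuclei 0 were higher and 4 lower (9.9% and 20.4% of all genes, list median -1.71 log2 against -0.06 over all genes).

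Of 14 intracellular regulators, 0 were higher and 2 lower in embryonic mesoderm-like nuclei (median 0.08 log2), where 6.61% and 11.1% of all genes were. It was 0 and 1 in haemato-endothelial progenitor-like nuclei (8.5% and 11.7% of all genes). In visceral endoderm-like nuclei it was 1 and 5 (15.7% and 21% of all genes, list median -0.56), and in extraembryonic ectoderm-like nuclei 0 and 6 (9.9% and 20.4% of all genes, list median -0.78). Gpr161, a ciliary receptor that restrains the response, was 0.82 CPM in visceral endoderm-like and 6.23 in epiblast-like nuclei. Evc, which acts with Smo at the cilium base, was 1.28 and 9.64. Kif7, the kinesin that regulates Gli proteins at the cilium tip, was 1.37 CPM in extraembryonic ectoderm-like nuclei against 7.10. Of 11 cilium genes, 1 was higher and 0 lower in embryonic mesoderm-like nuclei (6.61% and 11.1% of all genes) and in haemato-endothelial progenitor-like nuclei (8.5% and 11.7% of all genes), near the background. The gene was Kif3a, a motor subunit of ciliary transport, at 2.48-fold (2.20–2.79) and 2.62-fold (2.26–3.02). Dync2h1, the motor of return transport in the cilium, was 0.66-fold (0.62–0.71) in haemato-endothelial progenitor-like nuclei. In visceral endoderm-like nuclei 0 of 11 were higher and 3 lower (15.7% and 21% of all genes), near the background, with Ift80 at 28.7 CPM against 79.7.

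GLI target genes known from other tissues went both ways in the mesodermal classes and were mostly lower in visceral endoderm-like and extraembryonic ectoderm-like nuclei. In embryonic mesoderm-like nuclei 1 of 6 was at least 2-fold higher and 1 lower (median 0.27 log2), beside 6.61% and 11.1% of all genes. In haemato-endothelial progenitor-like nuclei it was 1 and 2 of 5 (median 0.41), beside 8.5% and 11.7% of all genes. The higher gene was the cyclin Ccnd2, at 272 and 424 CPM against 66.2 in epiblast-like nuclei, folds of 4.10 (3.90–4.31) and 6.41 (6.07–6.76). In visceral endoderm-like nuclei 1 was higher (Nkx2-2, at 1.39 CPM, named after its value was seen) and 4 of 6 lower (median -1.72, beside 15.7% of all genes higher and 21% lower), among them the cyclin Ccnd1 at 18.9 CPM against 103. Extraembryonic ectoderm-like nuclei had 0 higher and 4 of 5 lower (median -2.08, beside 9.9% of all genes higher and 20.4% lower), among them the survival gene Bcl2 at 2.83 CPM, a fold of 0.19 (0.13–0.27). These lists came from other tissues and no list was tested.

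**Figure D4:**
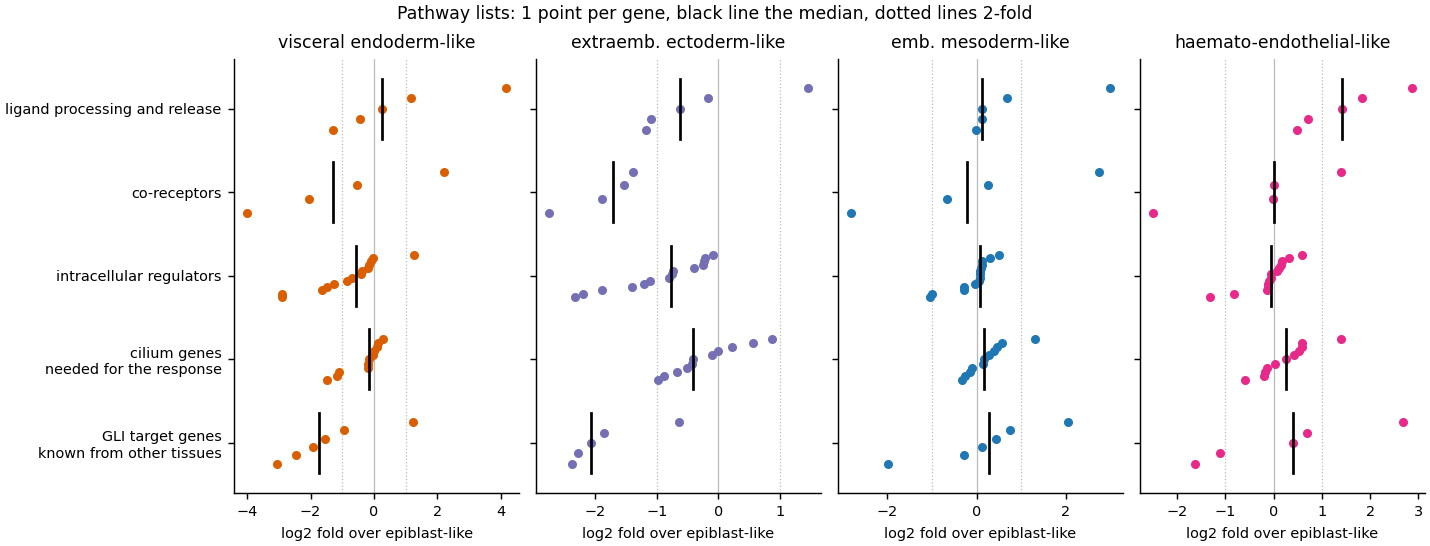
Log2 fold over epiblast-like nuclei (horizontal axis) of each pathway gene with at least 50 UMIs over both sides, for 4 classes; 1 point per gene, black lines list medians, dotted lines 2-fold. Lrp2 stands at 4.63-fold in visceral endoderm-like nuclei, and the 14 intracellular regulators have a median of 0.08 in embryonic mesoderm-like nuclei.

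Accessibility was read in the reverse way, in classes built from RNA without these genes or the pathway lists. Values are peak counts per 1000000 peak counts of a class (accessibility CPM), and intervals were set on estimated fragments. At Ihh, 8 of 24 peaks were at least 2-fold more accessible in visceral endoderm-like nuclei than in all others, where 14.2% of all peaks were, and 2 were less accessible, where 37.8% were. In RNA cluster 15, the group with the highest Ihh, it was 9 more and 3 less accessible (15.8% and 39.1% of all peaks). In extraembryonic ectoderm-like nuclei 0 were more and 16 less accessible (11.5% and 41.6% of all peaks).

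The Ihh promoter peak, chr1:74951158-74952042, was open everywhere but to different degrees. It had 56.5 accessibility CPM in RNA cluster 15, 34.6 in visceral endoderm-like, 19.2 in epiblast-like, 15.9 in embryonic mesoderm-like and 9.08 in extraembryonic ectoderm-like nuclei. Its r with Ihh RNA over the 17 clusters was 0.68. Downstream, chr1:74941499-74942356 had the largest distal fold in RNA cluster 15 over all other nuclei, 9.30 (4.82–16.5). It had 9.42 accessibility CPM there on 26 counts, and its r with Ihh RNA was 0.40. About 20 kb upstream, chr1:74971425-74972328 had 72.1 in RNA cluster 15 and 38.2 in visceral endoderm-like nuclei, but 1.98 in epiblast-like and 1.29 in embryonic mesoderm-like nuclei. Its fold in RNA cluster 15 over all other nuclei was 8.10 (6.56–9.92) and its r with Ihh RNA over the 17 clusters 0.86. A further upstream peak, chr1:74962322-74963200, had r of 0.96, with 14.4 in visceral endoderm-like and 0.52 in epiblast-like nuclei. It was singled out after its values were seen.

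At Shh, the promoter peak chr5:28466434-28467154 was weak in every class, with 5.08 accessibility CPM in node-like nuclei, 1.22-fold (0.63–2.15) that of all others. Of 10 peaks, 1 was at least 2-fold more accessible in node-like nuclei (13% of all peaks) and 2 in anterior streak and definitive endoderm-like nuclei (10.8% of all peaks). It was also 2 in epiblast-like nuclei (12.3% of all peaks) and in RNA cluster 15 (15.8% of all peaks). At resolution 2 it was 0 in node-like nuclei (9.07% of all peaks) and 3 in anterior streak and definitive endoderm-like nuclei (11% of all peaks). The classes of these names were larger there, at 557 and 844 nuclei, so they are not the same nuclei.

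At Ptch1, 7 of 17 peaks were at least 2-fold more accessible in embryonic mesoderm-like nuclei (10.1% of all peaks) and 2 less (18.8% of all peaks). In haemato-endothelial progenitor-like nuclei it was 5 more (2 with doublet calls kept) and 1 less (9.7% and 22.8% of all peaks). In visceral endoderm-like nuclei it was 1 more and 8 less (14.2% and 37.8% of all peaks), and in extraembryonic ectoderm-like nuclei 0 more and 14 less (11.5% and 41.6% of all peaks). At resolution 2 the extraembryonic mesoderm-like nuclei kept the larger count, 7 more and 1 less (11.4% and 26% of all peaks), and the haemato-endothelial progenitor-like nuclei had 2 more and 5 less (10.8% and 26.8% of all peaks).

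Ptch1 promoter peaks were unlike each other. The promoter peak with most counts, chr13:63562836-63563752, was highest in visceral endoderm-like nuclei at 38.4 accessibility CPM, with 24.2 in epiblast-like, 23.9 in embryonic mesoderm-like and 19.0 in haemato-endothelial progenitor-like nuclei, and so ran apart from the RNA (r 0.10). This peak overlapped no Ptch1 start. It lay downstream of all of them, and counted as a promoter peak only because it came within 1000 bp. The peak chr13:63565887-63566734, which overlaps only the upstream end of the printed Ptch1 promoter and not its start, followed the RNA (r 0.84), with 32.0 in embryonic mesoderm-like, 30.1 in haemato-endothelial progenitor-like, 20.2 in epiblast-like and 14.2 in visceral endoderm-like nuclei. The peak upstream of it, chr13:63569031-63569829, had the sharper contrast, with 31.7, 28.7, 11.1 and 2.57 in the same order and 0.77 in extraembryonic ectoderm-like nuclei (r 0.87). At resolution 2 it separated extraembryonic mesoderm-like nuclei, at 43.0 (3.69-fold, 3.02–4.47), from haemato-endothelial progenitor-like nuclei, at 11.9 (0.96-fold, 0.67–1.34), as Ptch1 RNA did. Both of these peaks were singled out after their values were seen.

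The distal peaks with the largest folds in haemato-endothelial progenitor-like nuclei were chr13:63609546-63610409 and chr13:63580856-63581704. The first had 10.9 accessibility CPM there, 4.78 in embryonic mesoderm-like, 2.56 in epiblast-like and 0.69 in visceral endoderm-like nuclei, a fold of 4.66 (3.52–6.08) over all others. The second had a fold of 2.91 (1.53–5.14). Unlike the peak upstream of the promoter, the first was raised in both groups at resolution 2, at 12.2 in extraembryonic mesoderm-like and 8.97 in haemato-endothelial progenitor-like nuclei.

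**Figure D5:**
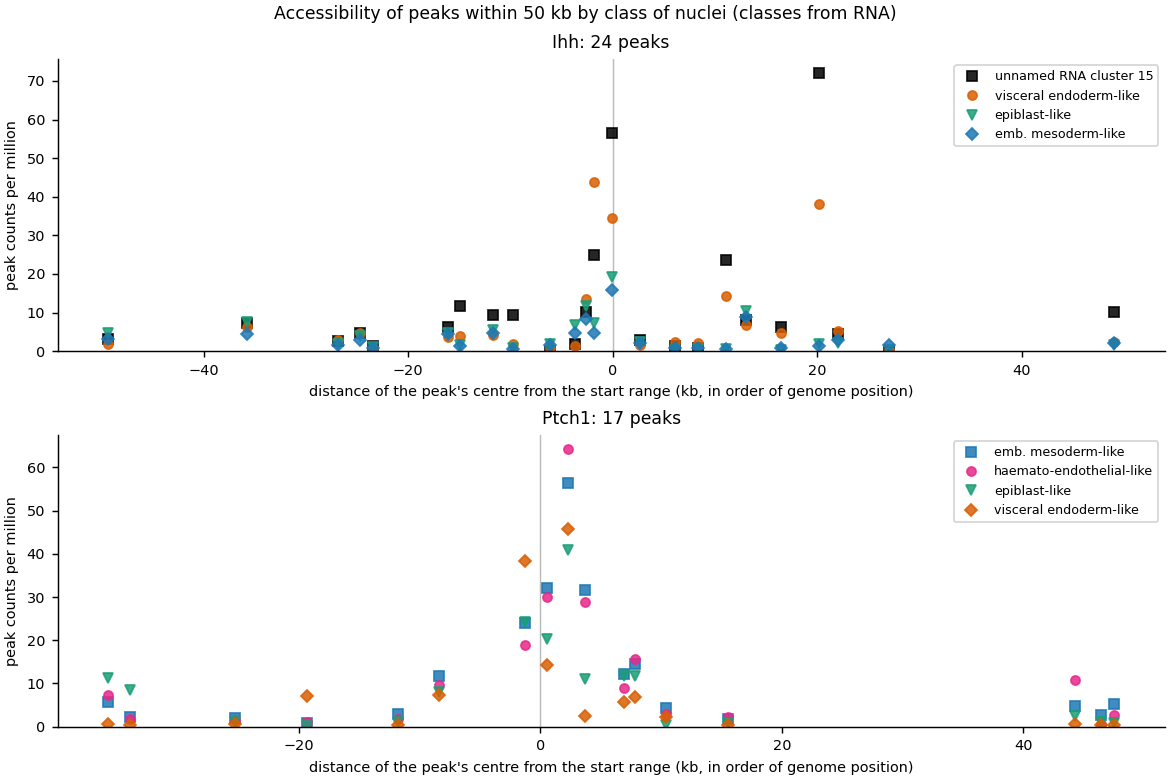
Accessibility of the 24 peaks near Ihh (top) and the 17 near Ptch1 (bottom), in accessibility CPM (vertical axes from 0), by distance of the peak centre from the gene's start in genome order (horizontal axis); colours are RNA classes. Visceral endoderm-like nuclei and RNA cluster 15 stand above the others about 20 kb from Ihh (38.2 and 72.1), and mesodermal classes above the others just beyond the Ptch1 starts (31.7 and 28.7).

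Of 24 Boc peaks tested, 8 were more and 2 less accessible in embryonic mesoderm-like nuclei (10.1% and 18.8% of all peaks), and 4 and 4 in haemato-endothelial progenitor-like nuclei (9.7% and 22.8% of all peaks), near the share of all peaks. At resolution 2 it was 9 and 4 in extraembryonic mesoderm-like nuclei (11.4% and 26% of all peaks) and 1 and 9 in haemato-endothelial progenitor-like nuclei (10.8% and 26.8% of all peaks). Among other classes, it was 5 more and 1 less in anterior streak and definitive endoderm-like nuclei (10.8% and 18.5% of all peaks) and 5 and 4 in node-like nuclei (13% and 21.6% of all peaks). The largest count was that of primordial germ cell-like nuclei, 10 more and 4 less (14% and 26.7% of all peaks), and at resolution 2 it was 6 and 3 there (7.38% and 20.9% of all peaks). That class was larger at resolution 2, with 283 nuclei. The promoter peak chr16:44557835-44558460 changed little (1.28-fold, 1.02–1.58, in haemato-endothelial progenitor-like nuclei). The distal peak chr16:44581865-44582768 had 10.7 accessibility CPM in embryonic mesoderm-like, 10.5 in haemato-endothelial progenitor-like, 1.85 in epiblast-like and 1.31 in visceral endoderm-like nuclei (r 0.89).

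Of 11 Hhip peaks, 3 were more and 2 less accessible in haemato-endothelial progenitor-like nuclei (9.7% and 22.8% of all peaks). The promoter peak chr8:80057621-80058424, which covers the printed Hhip promoter, was 0.97-fold (0.75–1.24) that of all others in haemato-endothelial progenitor-like and 0.98-fold (0.74–1.28) in anterior streak and definitive endoderm-like nuclei, with 15.7 accessibility CPM in epiblast-like and 4.42 in visceral endoderm-like nuclei. In anterior streak and definitive endoderm-like nuclei 4 of 11 were more accessible and 0 less (10.8% and 18.5% of all peaks), but at resolution 2 it was 2 and 2 (11% and 23% of all peaks). The class of that name was larger at resolution 2, with 844 nuclei. At resolution 1 the peak chr8:80053956-80054811 had 15.3 accessibility CPM in anterior streak and definitive endoderm-like nuclei, against 10.7 in node-like, 8.42 in visceral endoderm-like and 0.93 in haemato-endothelial progenitor-like nuclei, and its r with Hhip RNA was 0.058. Another, chr8:80049046-80049946, singled out after its values were seen, had 12.3 in haemato-endothelial progenitor-like, 1.99 in embryonic mesoderm-like and 0.62 in epiblast-like nuclei.

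At Gli1, 0 of 23 peaks were more accessible and 5 less in embryonic mesoderm-like nuclei (10.1% and 18.8% of all peaks), and also 0 and 5 in haemato-endothelial progenitor-like nuclei (9.7% and 22.8% of all peaks). The shares of less accessible peaks were near those of all peaks. The promoter peak chr10:127342034-127342802 was 0.91-fold (0.69–1.17) that of all others in haemato-endothelial progenitor-like nuclei. Its r with Gli1 RNA was 0.25 over 17 accessibility clusters and 0.73 over 18 RNA clusters. In extraembryonic ectoderm-like nuclei 4 of 23 were more accessible and 2 less (11.5% and 41.6% of all peaks). The strongest of them, singled out after its values were seen, was chr10:127336715-127337545, with 24.5 accessibility CPM there, 2.59 in visceral endoderm-like and 1.48 in epiblast-like nuclei. Starts of other genes, Arhgap9 and Inhbe among them, lie within this window, and no peak was assigned to a gene.

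At Gli2, 8 of 26 peaks were more accessible in epiblast-like nuclei (12.3% of all peaks) and 1 less (21.4% of all peaks), and in visceral endoderm-like nuclei 0 were more and 20 less accessible (14.2% and 37.8% of all peaks). The Gli2 promoter peak chr1:119053261-119054147 was 27.3 accessibility CPM in epiblast-like and 12.7 in visceral endoderm-like nuclei. The Gli3 promoter peak chr13:15462823-15463662 followed the RNA closely (r 0.92), with 56.5 in embryonic mesoderm-like, 54.9 in haemato-endothelial progenitor-like, 49.2 in epiblast-like and 15.1 in visceral endoderm-like nuclei. Of 14 Gli3 peaks tested, 5 were more accessible in haemato-endothelial progenitor-like nuclei and 0 less (9.7% and 22.8% of all peaks), and in visceral endoderm-like nuclei 0 were more and 11 less (14.2% and 37.8% of all peaks). At Smo, the promoter peak chr6:29735199-29735974 had an r of 0.88 with Smo RNA but changed little, and 0 of 23 peaks were more accessible and 6 less in visceral endoderm-like nuclei (14.2% and 37.8% of all peaks), a smaller share than over all peaks. Over the 17 accessibility clusters, r with the gene's own RNA was above 0.5 for 8 of 24 peaks at Ihh, 10 of 17 at Ptch1, 12 of 25 at Boc, 3 of 11 at Hhip and 7 of 24 at Smo. It was 1 of 23 at Gli1, 16 of 26 at Gli2, 9 of 16 at Gli3 and, on 19 UMIs, 0 of 10 at Shh. The share over all peaks was not computed, so these counts do not show whether peaks near these genes followed RNA more often than other peaks.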

How the data were processed

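The authors deposited whole-number counts without normalization, UMIs per gene and counts per peak, made with Cell Ranger ARC 2.0.0 on mm10, per the submitters' processing notes. The peak caller, gene annotation and barcode filter are not given in the sources used here. Of nonzero peak values, 86.4% were even, so peak intervals came from estimated fragments (count divided by 2, rounded up). Of 15341 barcodes shared by both assays, 12796 were kept, with at least 1000 UMIs, 500 genes and 1000 peak counts, at most 20% mitochondrial UMIs and no Scrublet call (7.52% called). Each assay was clustered apart with scanpy 1.11.5 and leidenalg 0.10.2 (30 components, 15 neighbours, resolution 1, seed 0). Accessibility components were computed in double precision, because in single precision the clusters differed between runs. Clusters were named from 16 marker lists, less those that summed to under 20 CPM over kept nuclei. The decidua (12.9 CPM) and immune (5.84 CPM) lists fell under that limit and could neither give nor block a name. A name needed a mean log2 ratio of 0.5 over all other nuclei and 3 markers raised 1.5-fold on at least 50 UMIs. At least as many detected markers had to be raised as not. No other list could have more of its markers among the 10 leading genes. A rival list above 0.8 of the score blocked the name if it had at least as many markers among those genes. This scoring rule was set after the clusters had been seen. The members and lists were chosen with earlier results of these data known.

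Levels were summed UMIs per 1000000 with exact Poisson intervals, and ratios had exact conditional binomial intervals (scipy 1.17.1). Calls were at least 2-fold on at least 50 UMIs or 100 peak counts over both sides. Named genes were all members, the 3 genes most like Shh, Ihh, Ptch1, Gli1 and Hhip, the 2 genes furthest from the reference in each list and class, each promoter peak with most counts and the 2 distal peaks with the largest fold where the RNA was highest. Those that add nothing to another value are left out, and some are not reported here. A promoter peak lay within 1000 bp of a start. Alternatives changed the assay behind the classes, resolution, random seed, doublets, depth limits, scaling, thinning and distance.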

Additional observations from a re-analysis of the deposited data

How the results depend on the processing

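Of 115 alternatives over 26 values, 80 stayed within the counting interval or 1.5 times the count, 34 moved and 1 reversed. Ihh in visceral endoderm-like nuclei over all others was 6.72-fold. It was 5.83 with RNA clusters, 5.68 at resolution 2, 3.49 with doublets kept, 8.17 with at least 2000 UMIs and peak counts, and 9.82 with random seed 1, a setting chosen after seeing the data. With seed 1 a further cluster with all 11 visceral endoderm markers raised took the name, and with RNA clusters the unnamed RNA cluster 15 lay outside the class. The cause of these changes in the fold was not tested. Ptch1 in haemato-endothelial progenitor-like nuclei was 3.21 at resolution 0.5, 1.85 at resolution 2 and 3.08 with doublets kept, against 3.35, and Gli1 there was 1.61 at resolution 2 against 2.79. In embryonic mesoderm-like nuclei Ptch1 was 3.77 with RNA clusters, 3.77 at resolution 0.5, 3.65 at resolution 2, 3.53 with doublets kept and 3.65 with at least 2000 UMIs and peak counts, against 3.38. More accessible Ptch1 peaks numbered 4 of 11 within 20 kb in embryonic mesoderm-like nuclei, a share close to 7 of 17 within 50 kb. In haemato-endothelial progenitor-like nuclei they numbered 3 of 11 within 20 kb, 2 at resolution 2 and 2 with doublets kept, against 5 of 17. Shares follow depth. Ihh in visceral endoderm-like nuclei was 6.21% thinned to 3000 UMIs and 23.4% unthinned, Ptch1 in haemato-endothelial progenitor-like nuclei 58.6% and 87.3%. In embryonic mesoderm-like nuclei Gli1 was seen in 13.4% of those with a Ptch1 UMI and 6.04% without when unthinned, but in 2.93% with and 3.32% without when thinned to 3000 UMIs (chosen after seeing the data), a difference of -0.39 percentage points against 3.96 when thinned to 5000 UMIs. The cause was not tested. No pairing of replicates was possible because each assay had 1 library, although both assays covered the same nuclei. Depth limits Shh most, at 19 UMIs.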
